A study of Mus musculus with 2 samples.

Results

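TRBV segments are the variable gene segments of the T cell receptor beta locus, and 35 of the 32285 genes in the deposited matrix carried a symbol that starts with Trbv. All 35 were described in 10007 of the 16179 barcodes. These were the cells with at least 1000 detected genes, at most 5% mitochondrial UMIs (unique molecular identifiers, each a counted RNA molecule), and at least 10 hashtag UMIs of which at least 80% lay on 1 of 8 hashtag rows, numbered 11 to 18. The hashtag limit leaves out droplets with mixed hashtags but not doublets of 2 cells from the same row, and no doublet caller was run.

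A developing T cell joins 1 variable, 1 diversity and 1 joining segment into a beta chain gene, so a mature cell mostly transcribes a single rearranged Trbv segment, while allelic exclusion keeps the second allele from adding a functional chain. Invariant natural killer T (iNKT) cells recognise lipids on CD1d with a nearly fixed alpha chain built from Trav11 and a limited choice of beta chains. In the mouse these are mostly those of the Trbv13 family (Vβ8 in the older naming), Trbv29 (Vβ7) and Trbv1 (Vβ2).

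The study profiled sorted thymic iNKT cells of Ctrl mice and of T-KO mice, in which Kidins220, a membrane scaffold protein that binds the T cell receptor, is deleted in T cells only, on a C57BL/6 background. For each genotype 4 thymi were pooled. From each pool a stage 0 population (TCRβ+ CD1dt+ CD24+ NK1.1-) and a stage 3 population (TCRβ+ CD1dt+ NK1.1+ CD24- CD44+) were sorted, both in 2 replicas, where CD1dt is the CD1d tetramer. The 8 populations were marked with hashtag antibodies and captured together as 1 droplet library with a matching hashtag library. The sources used here number the hashtags in another way than the matrix and pair none of rows 11 to 18 with a population. The rows were therefore left without a stage or genotype, Ctrl was not compared with T-KO, and no test was run. Each row is a pool with no replicate of known identity, and the 95% intervals below (Clopper-Pearson for shares, exact Poisson for levels) cover counting error only. UMIs of 1 cell are not independent, so intervals on UMI shares and on levels are too narrow.

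The rows held between 577 and 2162 cells and between 2283162 and 14601545 gene UMIs. Median UMIs per cell were 6500 to 8068 in the odd rows (11, 13, 15 and 17) and 3258 to 3804 in the even rows (12, 14, 16 and 18). Transcripts of both sorting markers separated these rows. Cd24a, which encodes CD24, stood at 313 to 365 CPM (counts per 1000000 gene UMIs) in odd rows and 23.3 to 34.2 in even rows. Klrb1c, which encodes NK1.1, stood at 4.78 to 6.57 CPM in odd rows and 328 to 444 in even rows. Trav11, which together with Zbtb16 marks iNKT cells, was at 0.205 to 1.14 CPM in odd rows and 39.5 to 56.5 in even rows, so the defining alpha chain was near 0 in the odd rows. The odd rows also held cells of other types. B cell markers (Cd79a, Cd79b and Ms4a1) summed to 355 to 846 CPM there against 27.9 to 49.5 in even rows, and myeloid markers (Lyz2, Cst3, Itgax, Tyrobp and H2-Aa) to 3920 to 11418 CPM against 400 to 605.

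The segments that carry the results are close relatives, shown here as exon sequence of build GRCm38 read from RefSeq, because their similarity bears on how reads are assigned. The 3 functional Trbv13 segments lie on the plus strand of chromosome 6 within 1 stretch of the locus. Their second exons, which encode most of the variable domain, are at chr6:41116175-41116468 (Trbv13-1), chr6:41121539-41121832 (Trbv13-2) and chr6:41130292-41130585 (Trbv13-3), each 294 bases long. Capitals in Trbv13-1 (33) and Trbv13-3 (24) mark bases that differ from Trbv13-2, and capitals in Trbv13-2 (49) mark positions where either relative differs from it.
Trbv13-1: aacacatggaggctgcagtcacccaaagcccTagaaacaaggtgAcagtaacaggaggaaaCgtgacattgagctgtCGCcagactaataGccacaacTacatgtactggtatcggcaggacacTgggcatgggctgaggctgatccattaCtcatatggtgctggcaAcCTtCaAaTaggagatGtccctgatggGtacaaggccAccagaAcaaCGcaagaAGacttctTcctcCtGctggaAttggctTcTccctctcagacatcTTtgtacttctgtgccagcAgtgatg
Trbv13-2: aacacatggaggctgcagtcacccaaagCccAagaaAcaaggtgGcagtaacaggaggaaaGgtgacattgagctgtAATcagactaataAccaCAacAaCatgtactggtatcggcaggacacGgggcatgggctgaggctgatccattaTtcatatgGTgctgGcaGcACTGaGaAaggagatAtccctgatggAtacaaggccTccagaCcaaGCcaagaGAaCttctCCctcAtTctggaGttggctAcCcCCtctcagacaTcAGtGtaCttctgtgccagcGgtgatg
Trbv13-3: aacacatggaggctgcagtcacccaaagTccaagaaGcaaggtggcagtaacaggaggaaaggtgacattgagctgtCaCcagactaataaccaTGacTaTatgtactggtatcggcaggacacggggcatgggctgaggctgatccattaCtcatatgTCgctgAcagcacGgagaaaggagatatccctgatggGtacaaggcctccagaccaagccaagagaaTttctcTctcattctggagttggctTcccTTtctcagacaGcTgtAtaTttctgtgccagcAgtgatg

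Between Trbv13-2 and Trbv13-3 the exons were 91.8% identical, with a longest identical run of 50 bases. Trbv13-1 was 88.8% identical to Trbv13-2 and 86.1% to Trbv13-3. Trbv12-1 and Trbv12-2 formed the other close pair, at 89.1%. No further pair of functional segments exceeded 72.5%.

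The end of each segment carries the recombination signal that RAG recognises, a heptamer and a nonamer around a spacer, and this is where the segments of the even rows and their neighbours can be compared. The stretches below hold the last 12 coding bases, the 7-base heptamer in capitals, the 23-base spacer and the 9-base nonamer in capitals, all on the plus strand of GRCm38. They lie at chr6:41116457-41116507 (Trbv13-1), chr6:41121821-41121871 (Trbv13-2), chr6:41130574-41130624 (Trbv13-3), chr6:40891874-40891924 (Trbv1), chr6:41271870-41271920 (Trbv29) and chr6:41119353-41119403 (Trbv12-2).
Trbv13-1: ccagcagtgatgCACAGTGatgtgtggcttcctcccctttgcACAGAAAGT
Trbv13-2: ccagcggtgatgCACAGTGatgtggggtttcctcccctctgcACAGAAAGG
Trbv13-3: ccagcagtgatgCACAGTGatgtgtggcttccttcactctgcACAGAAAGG
Trbv1: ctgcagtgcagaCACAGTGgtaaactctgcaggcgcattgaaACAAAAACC
Trbv29: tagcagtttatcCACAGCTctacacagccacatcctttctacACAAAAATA
Trbv12-2: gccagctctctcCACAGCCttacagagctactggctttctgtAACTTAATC

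All 3 Trbv13 segments and Trbv1 carried the heptamer CACAGTG, and in Trbv29 and Trbv12-2 its last bases differed. The same 7 letters directly followed the annotated end of 8 of the 22 functional segments and of 0 of the 13 pseudogenes, read on the segment's own strand. These are matches of letters and were not related to use.

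Of the 35 segments, 26 had at least 1 UMI in these cells, namely all 22 functional segments and 4 of the 13 pseudogenes, and the 4 pseudogenes held 263 of the 72979 TRBV UMIs. The other 9 pseudogenes had no UMI. Counts were not scaled to gene length, so shares compare UMIs. Segments with at least 5% of the TRBV UMIs of any row, together with Trbv13-1, Trbv13-2, Trbv13-3, Trbv29 and Trbv1, are named with their values, which gave 13 segments.

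In the even rows 1 segment, Trbv13-2, supplied nearly as many UMIs as all other segments together, and the Trbv13 family and Trbv1 supplied most of the rest. In the odd rows use was spread over the whole locus and no segment exceeded 14.7% of the UMIs of a row. Trbv13-2 encodes Vβ8.2. Its share of TRBV UMIs was 14.7% in row 11, 14.2% in row 13, 13.0% in row 15 and 12.1% in row 17. It was 46.6% in row 12, 47.6% in row 14, 49.3% in row 16 and 51.3% in row 18. The 2 sets of rows did not overlap, and their medians were 13.6% and 48.4%. Trbv13-2 was the leading segment of every row.

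Among the even rows the Trbv13-2 share of row 18 (95% interval 50.2 to 52.3%) lay above that of row 12 (45.5 to 47.7%) and row 14 (46.6 to 48.6%), while the intervals of rows 16 and 18 overlapped. By cells with a dominant segment the interval of row 18 overlapped those of all 3 other even rows. The other Trbv13 segments followed the same division between odd and even rows at lower levels. Trbv13-1 (Vβ8.3) held 8.04%, 7.07%, 7.26% and 9.91% of the UMIs in rows 11, 13, 15 and 17, against 13.0%, 11.9%, 13.9% and 15.3% in rows 12, 14, 16 and 18. Trbv13-3 (Vβ8.1) held 5.17%, 2.69%, 4.13% and 1.93% in the odd rows against 9.79%, 9.76%, 7.98% and 6.75% in the even rows. With at least 95% instead of 80% of the hashtag UMIs required on 1 row (6279 cells), the odd and even ranges overlapped for these 2 segments but not for Trbv13-2.

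Trbv1 (Vβ2) was also higher in the even rows by UMIs. Its shares were 9.12%, 5.98%, 5.38% and 6.53% in rows 11, 13, 15 and 17, and 15.3%, 13.6%, 11.4% and 10.2% in rows 12, 14, 16 and 18. When each cell was given the same weight the ranges overlapped and the even median was 8.32% instead of 12.5%. Even-row cells whose dominant segment was Trbv1 held a median of 9 UMIs of it, against 5 for Trbv13-2 and 6 for Trbv13-1. Trbv29 (Vβ7), the remaining segment linked to iNKT cells, did not separate the rows, with 2.73 to 5.06% in odd rows and 2.47 to 4.58% in even rows.

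The remaining 8 named segments were all lower in the even rows. Trbv3 held 6.46 to 7.73% of the UMIs in odd rows and 0.658 to 1.08% in even rows. Trbv2 held 2.95 to 5.69% in odd rows and 0.247 to 0.391% in even rows, and Trbv12-1 held 4.59 to 6.32% and 0.439 to 0.933%. Trbv15, Trbv16 and Trbv19 ranged from 3.68 to 8.16% in odd rows and stayed between 0.494 and 2.07% in even rows. Trbv31, the only segment that lies downstream of the constant genes and in inverted orientation, held 3.72 to 7.78% in odd rows and 1.49 to 1.92% in even rows. Trbv12-2 held 6.12 to 8.54% against 2.29 to 2.63%.

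The split was counted for the 22 segments with at least 50 UMIs. On the share scale 4 segments (Trbv13-1, Trbv13-2, Trbv13-3 and Trbv1) were higher in all even rows than in any odd row, 16 were higher in all odd rows, and Trbv24 and Trbv29 overlapped. As CPM the counts were 4, 15 and 3, with Trbv31 also overlapping. Of all 12642 genes with at least 50 UMIs, 22.1% had CPM values above every odd row in all even rows and 37.1% had the opposite order. Against these backgrounds stood 18.2% and 68.2% of the 22 segments as CPM. Shares of a total are tied to each other, so a higher share of Trbv13-2 leaves less for the other segments.

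**Figure D1:**
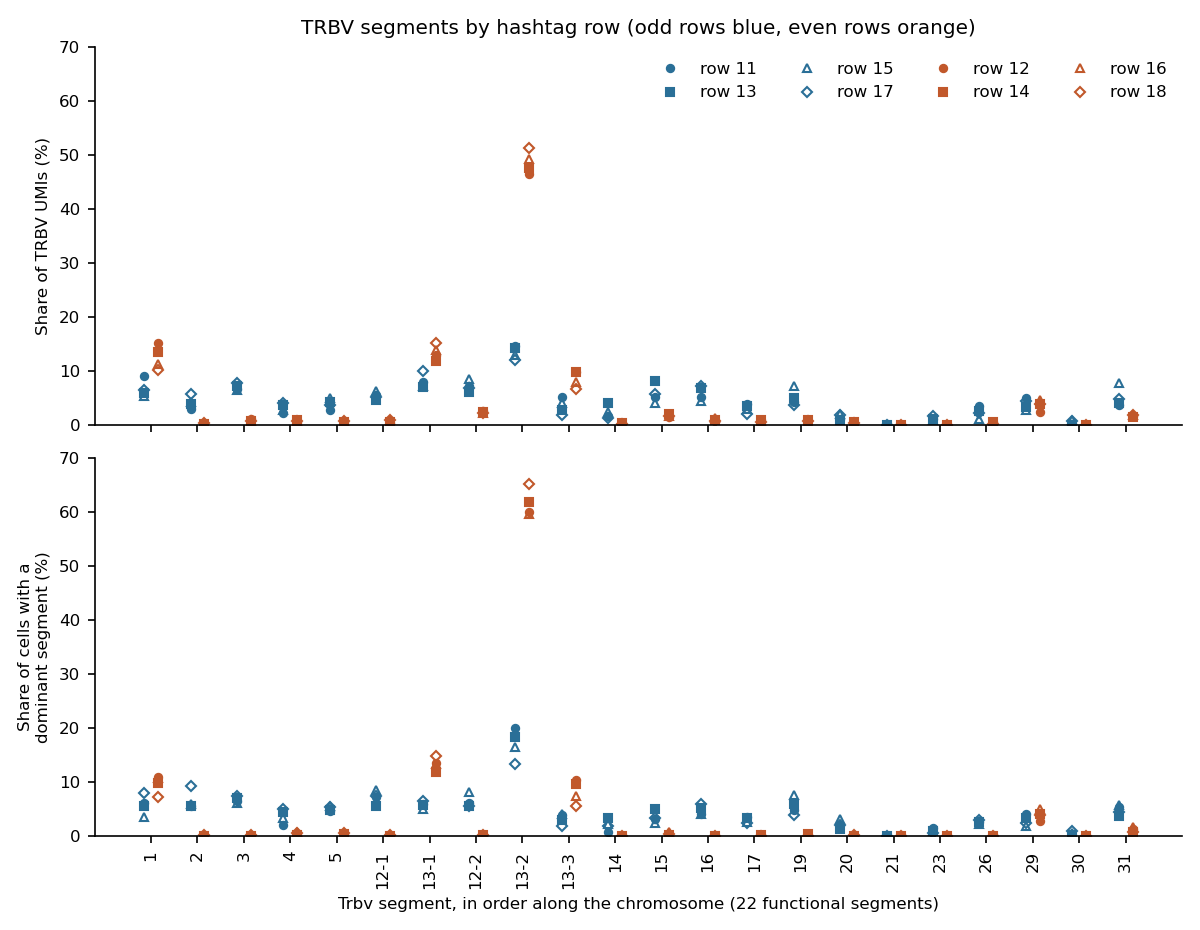
Share of TRBV UMIs (upper panel, %) and share of cells with a dominant segment (lower panel, %) for the 22 functional Trbv segments in their order along the chromosome, with 1 point per hashtag row (odd rows blue, even rows orange). Trbv13-2 reached 46.6 to 51.3% of UMIs and 59.6 to 65.2% of cells in even rows, while no segment exceeded 14.7% of UMIs in odd rows.

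Counting cells in place of UMIs gave a higher Trbv13-2 share in the even rows. A cell with at least 2 TRBV UMIs was given a dominant segment where at least 80% of them lay on 1 segment. This held for 70.3%, 71.0%, 75.6% and 76.1% of such cells in rows 11, 13, 15 and 17, and for 66.8%, 67.9%, 75.4% and 70.8% in rows 12, 14, 16 and 18, so the share of cells with a dominant segment did not divide the odd from the even rows. The chance that 2 TRBV UMIs drawn from 1 cell were of the same segment, which uses no limit, averaged 72.4 to 77.3% over cells in odd rows and 72.4 to 78.3% in even rows. With all UMIs required on 1 segment the median share of cells with a dominant segment fell to 37.1% in odd and 50.7% in even rows. This limit is harder to meet for cells with many TRBV UMIs. Among cells with at least 6 of them, medians were 12 to 18 in odd and 7 to 9 in even rows. The part of this in the difference was not tested.

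The 5 segments that background knowledge links to iNKT cells accounted for nearly all dominant calls of the even rows. Trbv13-1, Trbv13-2, Trbv13-3, Trbv29 and Trbv1 together held 964 of 988 dominant cells in row 12 (97.6%), 1223 of 1256 in row 14 (97.4%), 360 of 374 in row 16 (96.3%) and 760 of 785 in row 18 (96.8%). In the odd rows they held 39.9%, 35.8%, 31.0% and 32.0% in rows 11, 13, 15 and 17. Trbv13-2 alone was dominant in 592 cells of row 12 (59.9%, 95% interval 56.8 to 63.0%), 776 of row 14 (61.8%), 223 of row 16 (59.6%) and 512 of row 18 (65.2%, 61.8 to 68.6%). In odd rows it was dominant in 13.3 to 19.9% of cells. By UMIs the same 5 segments made up 86.8 to 87.3% of the even rows.

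Several segments that still contributed UMIs to the even rows were dominant in almost no cell there. Trbv16 was dominant in none of the 3403 even-row cells with a dominant segment, which allows a share of up to 0.0882% (the limit of 3 counts in the total), though it held 0.699 to 1.34% of the UMIs. Trbv12-2 held 2.29 to 2.63% of the even-row UMIs but was dominant in 0 to 0.267% of cells. Of its 738 UMIs in even rows, 11 lay in cells where it was dominant. In the odd rows, where Trbv12-2 was dominant in 5.49 to 8.11% of cells, both measures gave similar shares.

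The spread over segments was summarised as an effective number, the inverse of the chance that 2 cells with a dominant segment share it. It was 13.0, 14.0, 14.2 and 15.5 segments in rows 11, 13, 15 and 17, and 2.50, 2.40, 2.55 and 2.19 in rows 12, 14, 16 and 18. A row that used every one of its segments equally often would have an effective number near their count if many cells were called. Because the 2 cells are always different ones, the number can exceed that count where few cells were called per segment.

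**Figure D2:**
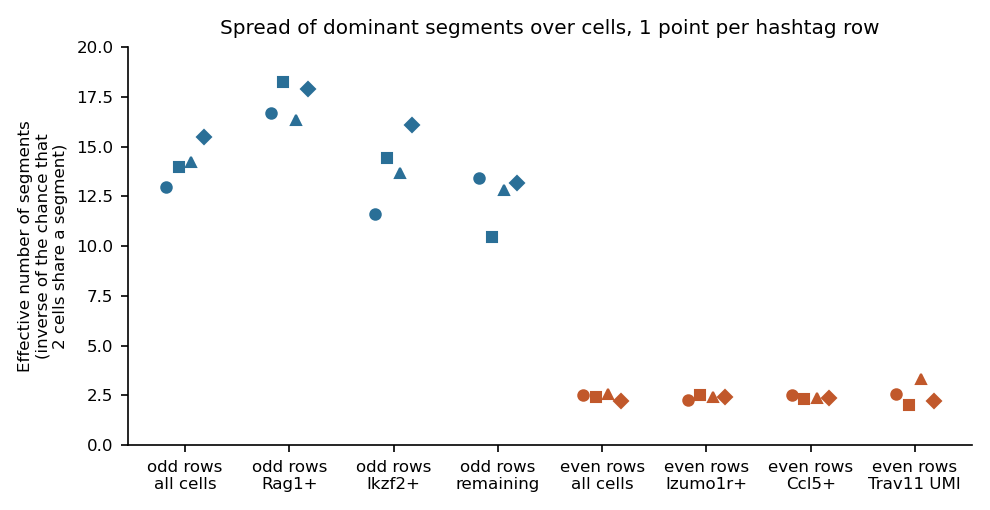
Effective number of Trbv segments among cells with a dominant segment (vertical axis) for all cells and for subsets of each hashtag row, where circle, square, triangle and diamond stand for rows 11, 13, 15 and 17 (blue) and rows 12, 14, 16 and 18 (orange). Every odd-row value lies at or above 10.5 and every even-row value at or below 3.30.

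The odd rows were split by transcripts of thymocyte development: cells with a UMI of Rag1, the recombinase that joins the segments, then cells with at least 2 UMIs of Ikzf2 (Helios), then the rest. Rag1+ cells (495) used the segments most evenly, with effective numbers of 16.3 to 18.2. Ikzf2+ cells (1210) had 11.6 to 16.1 and the remaining cells (2544) 10.5 to 13.4. Rag1+ exceeded Ikzf2+ in all 4 odd rows, and Ikzf2+ exceeded the remaining cells in rows 13, 15 and 17 but not in row 11 (11.6 against 13.4). These numbers carry no interval and were not recomputed for the subsets under other limits. Rag1+ cells were also deeper, with median gene UMIs of 7173 to 15274 per row against 5557 to 6294 in Ikzf2+ cells. The part of depth in this order was not tested.

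The Trbv13-2 share of UMIs was lowest in Rag1+ cells in rows 13, 15 and 17. In row 11 it was 14.9% in Rag1+, 15.1% in Ikzf2+ and 14.3% in the remaining cells, with overlapping intervals. In row 13 it was 10.6%, 14.4% and 17.7%. In row 15 it was 10.4%, 12.0% and 17.4%, and in row 17 it was 9.83%, 10.9% and 16.7%. The order of Rag1+ and Ikzf2+ was the same in all 4 odd rows, although their intervals were apart only in row 13. Limiting the cells to at most 4000 genes turned it, with a median of 13.6% in Rag1+ and 9.88% in Ikzf2+ cells. This limit removed 225 of the 495 Rag1+ and 234 of the 1210 Ikzf2+ cells.

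Of the other named segments, only Trbv29 had the same order of Rag1+ and Ikzf2+ in all 4 odd rows by UMIs, and it was higher in Rag1+ cells. Its shares were 11.9% against 1.10% in row 11, 4.63% against 1.85% in row 13, 4.36% against 2.67% in row 15 and 9.24% against 2.37% in row 17. By dominant cells the order failed in row 15, at 1.10% of Rag1+ against 3.26% of Ikzf2+ cells, while Trbv13-2, Trbv13-3 and Trbv19 were higher in Ikzf2+ cells in all 4 odd rows. Rag1+ cells with a dominant segment numbered 55 to 132 per row, so each share rests on few cells. No order shared by all 4 odd rows was found for 11 of the 13 named segments by UMIs and for 10 by dominant cells. Some shared orders arise by chance over 4 rows, and their number was not worked out.

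The remaining cells of the odd rows had a lower TRBV level and held the other cell types. Rag1+ cells contained 1624 to 1832 TRBV CPM, Ikzf2+ cells 1544 to 1959, and the remaining cells 490 to 1035. A TRBV UMI was found in 54.6 to 68.7% of the remaining cells. Of the odd-row cells with marker counts of B cells (704) or of myeloid cells (785), 672 and 744 were among the remaining cells. Keeping only cells with a UMI of Cd3d, Cd3e or Cd3g, the signalling chains of the receptor, moved the median Trbv13-2 share of the odd rows from 13.6% to 13.2%.

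The even rows were split by Izumo1r, a gene of the folate receptor family, and by Ccl5, a chemokine gene of effector cells. Izumo1r+ cells (684, at least 2 UMIs) and Ccl5+ cells (1010, at least 4 UMIs) used the same few segments, with effective numbers of 2.27 to 2.52 and 2.31 to 2.51. The Trbv13-2 share was 54.0% in Izumo1r+ and 48.2% in Ccl5+ cells of row 12, 42.6% and 50.1% in row 14, 50.2% and 53.3% in row 16, and 49.8% and 49.95% in row 18. The intervals were apart in row 14 alone (39.9 to 45.4% against 47.8 to 52.3%), where the share was lower in Izumo1r+ cells. By cells with a dominant segment the row 14 intervals overlapped, at 60.3% (51.2 to 68.9%) in Izumo1r+ against 63.6% (57.2 to 69.7%) in Ccl5+ cells. Trbv13-1 was higher in Izumo1r+ cells in all 4 rows, by 1.13 to 1.67 percentage points of the UMIs, but its intervals overlapped in each row. No order shared by all 4 rows was found for the other 12 named segments. A further 41 cells passed both limits and were kept apart.

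**Figure D3:**
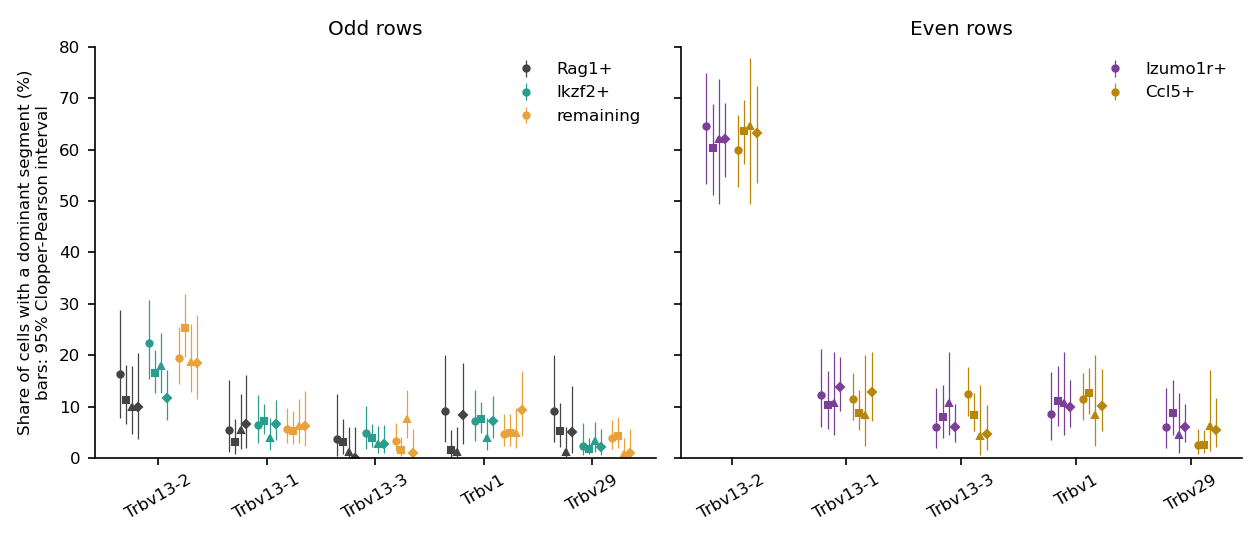
Share of cells with a dominant segment that had each of 5 segments (vertical axis, %, bars 95% Clopper-Pearson intervals), for 3 subsets of the odd rows (left) and 2 subsets of the even rows (right), where circle, square, triangle and diamond stand for rows 11, 13, 15 and 17 or rows 12, 14, 16 and 18. Trbv13-2 lies at 59.9 to 64.6% in the even-row subsets and at 9.89 to 25.4% in the odd-row subsets.

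The level of TRBV transcripts was higher in Izumo1r+ than in Ccl5+ cells in all 4 even rows. Izumo1r+ cells had 1410 TRBV CPM against 1111 in Ccl5+ cells of row 12, 1659 against 1353 in row 14, 2084 against 1186 in row 16, and 2170 against 1570 in row 18. The Poisson intervals were apart in all 4 rows, though they take no account of UMIs that share a cell. Ccl5 itself was used to choose the second subset, and its UMIs count in the total to which CPM is scaled.

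Cells of the even rows were also split by the alpha chain UMIs detected in them. In all, 1056 even-row cells had a Trav11 UMI and 1561 had UMIs of other TRAV segments only. Trav11 alone stood at 39.5 to 56.5 CPM in these rows and Trav11d at 11.8 to 15.1 CPM. Median UMIs per cell were 3258 to 3804. A cell that uses one of these segments can therefore lack a UMI of it, and the second group may include such cells. Trbv13-2 held 48.0% of the TRBV UMIs in Trav11 cells and 46.6% in the others of row 12, 53.7% and 46.4% in row 14, 45.0% and 49.2% in row 16, and 50.9% and 49.7% in row 18. Intervals were apart in row 14 alone (51.5 to 55.9% against 44.7 to 48.2%). By cells with a dominant segment they overlapped there, at 69.4% (63.2 to 75.0%) in Trav11 cells against 61.6% (56.3 to 66.7%) in the others. Effective numbers were 2.00 to 3.30 in Trav11 cells and 2.21 to 2.55 in the others. Among cells with a dominant segment, Trbv13-1 was lower in Trav11 cells in all 4 even rows. Its intervals were apart in row 14 alone, at 6.85% (4.04 to 10.7%) against 16.1% (12.4 to 20.4%). By UMIs Trbv13-1 was higher in 2 rows and lower in 2, while Trbv2 and Trbv3 were lower in all 4. No shared order was found for 12 of the 13 named segments by dominant cells and for 11 by UMIs. In the odd rows 33 cells had a UMI of Trav11, Trav11d or Trav11n, too few to describe segment use. Another 1766 had other TRAV UMIs only, with effective numbers of 16.0 to 17.2.

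The summed TRBV level was 785, 1101, 1172 and 1532 CPM in rows 11, 13, 15 and 17, and 1317, 1454, 1597 and 1741 in rows 12, 14, 16 and 18. These ranges overlapped. A TRBV UMI was found in 63.6 to 85.1% of odd-row cells and 93.2 to 95.7% of even-row cells, or in 43.9 to 72.9% and 88.3 to 91.3% after each cell was thinned to 2000 UMIs. Cells that should lack a beta chain give the background. B cell-like cells (710, median 5598 UMIs) had a TRBV UMI in 33.7% of cases and myeloid-like cells (795, median 9795 UMIs) in 35.6%, or 15.55% and 11.6% after thinning, at 117 and 102 CPM. Without any Cd3 UMI these levels were 49.6 and 40.6 CPM, and Trbv13-2 made up 22.5% and 18.8% of their TRBV UMIs, between the shares of the odd and even rows. For this reason at least 2 TRBV UMIs were required for a dominant segment.

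**Figure D4:**
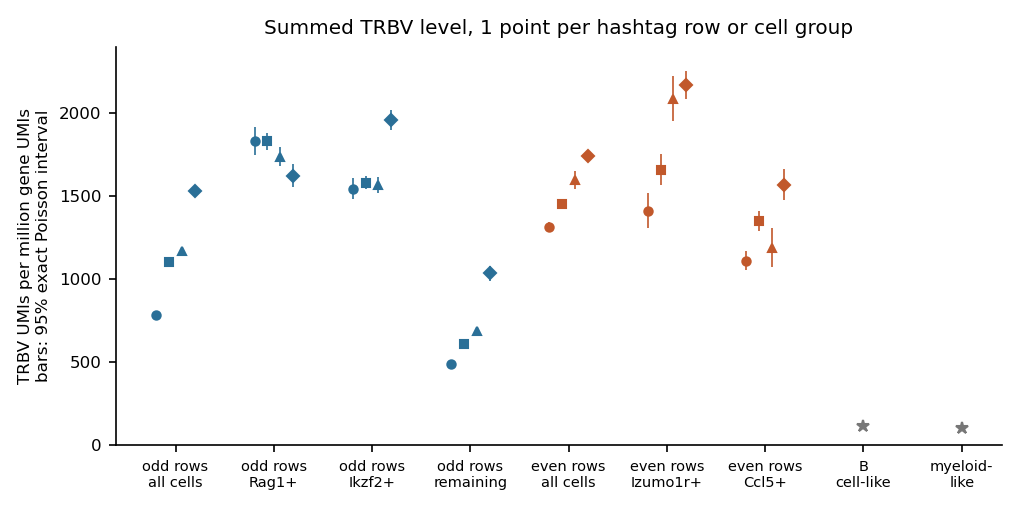
Summed TRBV level (vertical axis, TRBV UMIs per 1000000 gene UMIs, bars 95% exact Poisson intervals) in all cells and in subsets of odd (blue) and even (orange) rows, and in B cell-like and myeloid-like cells (grey), where circle, square, triangle and diamond stand for rows 11, 13, 15 and 17 or rows 12, 14, 16 and 18. Izumo1r+ cells lie above Ccl5+ cells of the same row in all 4 even rows, and the B cell-like and myeloid-like cells lie at 117 and 102 CPM.

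The other genes of the beta locus and the receptor complex moved in both directions. Of 27 genes listed, 8 were higher in all odd rows, 4 were higher in all even rows and 15 overlapped or had no UMI. Of the 11 with at least 50 UMIs, 45.5% were higher in all odd rows and 36.4% in all even rows, beside 37.1% and 22.1% of all genes. The other 3 of those higher in odd rows (Trbj1-3, Trbj1-5 and Trbj2-5) had only 12 to 17 UMIs each. Those higher in odd rows included Rag1 (22.5 to 35.9 against 2.64 to 4.52 CPM), Dntt, which adds untemplated bases at the joins (232 to 424 against 26.4 to 37.9), and Ptcra, the surrogate alpha chain of the pre-receptor (18.4 to 49.2 against 2.31 to 3.07). Those higher in even rows were Trac and the 3 Cd3 genes, with Cd3e at 306 to 655 CPM in odd and 1268 to 1402 in even rows. Of the 2 constant genes of the beta chain, Trbc1 was higher in odd rows (153 to 310 against 91.1 to 128 CPM) and Trbc2 overlapped (504 to 1007 against 408 to 535). The joining segments held few UMIs counted as separate genes, none above 1.48 CPM, and these counts do not measure their use in beta chain transcripts.

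UMIs of a second segment were not spread evenly over the locus. They were examined in cells with at least 3 TRBV UMIs of which at least 60% lay on 1 leading segment, limits chosen after the counts had been seen. Other segments held 8.97% of the TRBV UMIs of such cells in odd rows and 11.2% in even rows. Trbv12-2, the next segment upstream of Trbv13-2 at a distance of 2031 bases, held 27.5% of the other segments' UMIs in even-row cells led by Trbv13-2 and 31.5% in such odd-row cells, more than any other segment. In even rows 378 of 2326 cells led by Trbv13-2 had a Trbv12-2 UMI (16.3%, 95% interval 14.8 to 17.8%), against 92 of 1559 cells led by another segment (5.90%, 4.78 to 7.19%). In odd rows it was 113 of 357 (31.7%, 26.9 to 36.8%) against 125 of 1624 (7.70%, 6.45 to 9.10%).

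The order held in each of the 8 rows. In the odd rows 29.0 to 39.6% of cells led by Trbv13-2 carried Trbv12-2, against 6.34 to 8.43% of the rest, and in the even rows 14.7 to 18.7% against 4.69 to 9.20%. Cells led by Trbv13-2 had fewer TRBV UMIs than the rest (median 5 against 7 in even rows, 7 against 14 in odd rows). The exons of Trbv12-2 and Trbv13-2 were 48.5% identical. Cells led by Trbv12-2's near relative Trbv12-1 had a Trbv12-2 UMI in 5.37% of cases in odd rows.

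The reverse and the neighbouring pairs did not all share this. In odd rows 15 of 121 cells led by Trbv12-2 had a Trbv13-2 UMI (12.4%), below the 27.8% of cells led by other segments, whereas in even rows it was 5 of 7 cells (71.4%) against 20.3%. Trbv13-1 lies 1939 bases downstream of Trbv12-1, and Trbv12-1 was found in 12 of 512 even-row cells led by Trbv13-1 (2.34%) against 2.07% of the rest. Among cells led by Trbv13-3, whose sequence is closest to Trbv13-2, a Trbv13-2 UMI was found in 120 of 378 even-row cells (31.7%) against 16.9% of the rest, and in 46 of 79 odd-row cells (58.2%) against 25.2%, and this order too held in each of the 8 rows. Trbv12-2 was found in 22.8% of odd-row but 6.88% of even-row cells led by Trbv13-3.

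**Figure D5:**
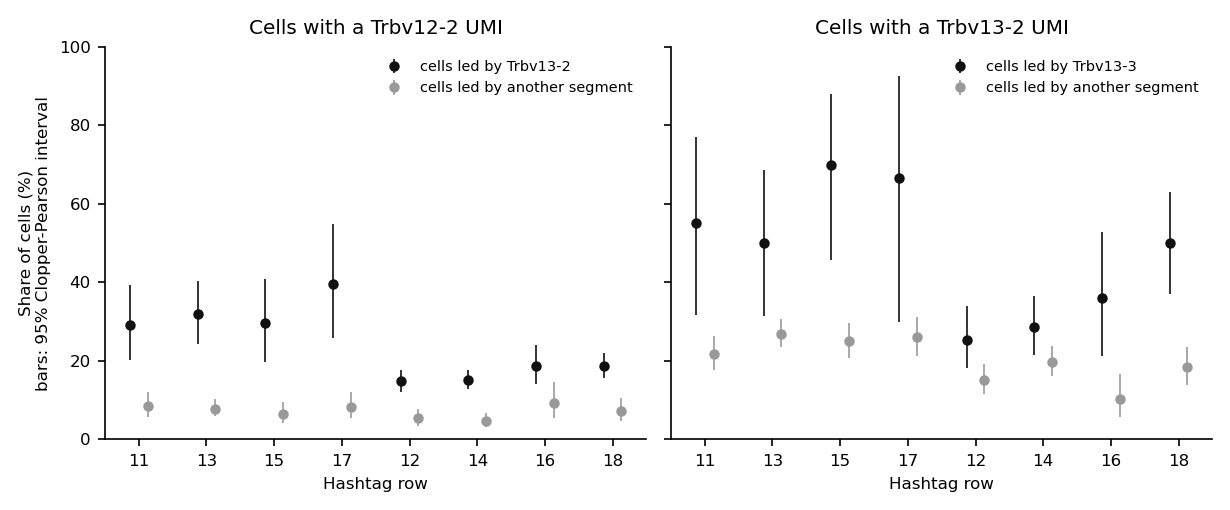
Share of cells (vertical axis, %, bars 95% Clopper-Pearson intervals) by hashtag row that had a Trbv12-2 UMI (left) or a Trbv13-2 UMI (right), in cells led by Trbv13-2 or Trbv13-3 (black) and in cells led by another segment (grey). Black lies above grey in each of the 8 rows in both panels.

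Of cells with at least 6 TRBV UMIs, 17.0 to 21.9% in odd rows and 8.86 to 10.5% in even rows had at least 3 UMIs on each of 2 segments. Trbv12-2 was in the most frequent pair of no row. The cells with at least 6 TRBV UMIs held more of them in odd rows (medians 12 to 18) than in even rows (7 to 9), and the part of this in the difference was not tested. In the odd rows these cells also had more detected genes than the others, with medians of 2455 to 3855.5 against 1880.5 to 3240, and in even rows 1727 to 1892 against 1624 to 1830, where row 16 had the opposite order (1825 against 1830). Cells with 2 rearranged alleles and doublets from 1 row cannot be told apart in these counts.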

How the data were processed

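The study's cells were run as 1 droplet library by the 5′ V(D)J workflow, and per the labels Cell Ranger 6.0.0 and build mm10 were named in the submitters' processing notes. The authors deposited an unnormalized matrix of UMI counts per gene, hashtag row and barcode, and no further normalization had been applied.

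From these counts, cells were taken by the limits given above, and TRBV UMIs were summed per row. CPM is the count per 1000000 gene UMIs. Depth per row is given above. Odd-row subsets used Rag1 (1 UMI), then Ikzf2 (2 UMIs), and even-row subsets Izumo1r (2 UMIs) and Ccl5 (4 UMIs). A cell was called B cell-like with at least 5 UMIs of the B cell markers and under 10 of Lyz2 and Cst3, and myeloid-like with at least 10 of these and under 5 of the B cell markers, limits chosen after the counts had been seen, as were those for second segments. Thinned shares are expected values at 2000 UMIs, without the shallower cells. Those left out numbered 25 to 97 per odd row and 68 to 195 per even row. Genes with at least 50 UMIs formed the background of the row comparison.

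The segments, their named subset (at least 5% of the TRBV UMIs of any row, plus 5 fixed segments) and the gene lists were chosen with earlier results of these data known, and 1 gene of the B cell list is not reported here. Coordinates and sequences came from RefSeq's GRCm38 genome with GENCODE M21 gene models, in which all 35 segments matched. Exons were aligned with Biopython 1.88. Python 3.11.15, numpy 2.4.6, scipy 1.17.1 and pandas 2.3.3 were used. The dominant call, the effective number, the thinning and the comparison of odd with even ranges were tested on simulated data. The other computations were not. The alternatives tried are listed in the closing section.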

Additional observations from a re-analysis of the deposited data

Results flagged for a closer look

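The Trbv15 share of TRBV UMIs in row 14 was 2.07%, apart from the other even rows, which lay between 1.52 and 1.60%. It was picked out because the gap to its nearest neighbour was large against the whole range of the 4 rows. In all, 30 sets of 4 rows were looked at in this way and 1 stood out, and chance picks out about 1 in 20 such sets.

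Among hashtag rows outside 11 to 18, row 1 held 12255 UMIs and row 4 held 11854, while the remaining unused rows held at most 599. They were picked out because these rows entered no comparison above, and rows 11 to 18 together held 99.9% of the hashtag UMIs. Their part in the results was not tested.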

How the results depend on the processing

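Over 10 alternatives, 233 values were recomputed for 39 results, and 180 stayed near the value above. A value stayed if it lay within the counting interval of the share pooled over the rows. It also stayed if it was no farther from the value above than the farther limit of that interval. For the effective number the range of the rows took the place of the interval. Of the 77 values for the main results, 61 stayed. Under wider limits (500 genes, 10% mitochondrial UMIs) the median share of even-row cells with a dominant segment was 66.8%. With at most 4000 genes, the median Trbv13-2 share was 12.6% in odd rows, 13.6% in their Rag1+ and 9.88% in their Ikzf2+ cells. With at least 95% of hashtag UMIs on 1 row, it was 49.3% in even rows, 12.0% in Ikzf2+ and 18.8% in the remaining odd-row cells, and 72.0% of even-row cells had a dominant segment. In cells with a Cd3 UMI it was 13.2% in odd rows and 12.5% in Ikzf2+ cells. With each cell weighted equally it was 19.6% in odd and 53.9% in even rows. With at least 3 TRBV UMIs, 75.9% of odd-row cells had a dominant segment, and with 100% of UMIs on 1 segment 37.1% in odd and 50.7% in even rows. With an Ikzf2 limit of 1 UMI the Ikzf2+ share was 14.4%. Leaving out pseudogenes moved no main result. The cause of these moves was not tested. For the other named segments 119 of 156 values stayed, and 4 moved by over 1.5 times: the even-row medians of Trbv12-1 (0.355% at 95%), Trbv1 (8.32%) and Trbv2 (0.459%) and the odd-row median of Trbv15 (3.30%), the last 3 with equal weights. The 4000-gene limit turned the order of Rag1+ and Ikzf2+ cells. In the 6 alternatives in which the order of the rows was recomputed, Trbv13-2 was higher in all even than in all odd rows, while the ranges came to overlap for Trbv13-1 and Trbv13-3 at 95% and for Trbv1 with equal weights. No paired analysis was possible because the hashtag rows carry no replicate number and no test was run. Depth limits the low segments, since the smallest row held 3646 TRBV UMIs.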

Other observations

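In odd rows the dominant cells of different segments held unlike numbers of UMIs. Cells whose dominant segment was Trbv15 had a median of 25 UMIs of it and cells of Trbv13-1 a median of 20, against 7 for Trbv13-2 and 8 for Trbv2. Trbv15 therefore took 4.02 to 8.16% of the odd-row UMIs but 2.39 to 5.04% of the dominant cells, and Trbv2 took 2.95 to 5.69% of the UMIs but 5.49 to 9.17% of the dominant cells. Whether RNA per cell or capture of each segment differs cannot be told apart in these counts.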
